A study of Drosophila melanogaster with 9 samples.

Results

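Aminoacyl-tRNA synthetase genes were examined in the ovaries of Drosophila melanogaster lines with edited Pcif1. Members were taken by name: a 3-letter amino acid code followed by RS, with -m marking the genes for mitochondrial enzymes. The rule found 33 of 17199 listed genes, 18 cytoplasmic and 15 mitochondrial. The authors' deposited table gives an adjusted p for all 33. The genes for both subunits of the cytoplasmic phenylalanine enzyme, alpha-PheRS and beta-PheRS, are written in another order and fall outside the rule.

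Ribosomal-RNA-depleted total RNA of ovaries was sequenced in 9 libraries, 3 for each of 3 lines. The M6stop line carries a Pcif1 allele with a frameshift and an early stop codon. The F9ΔNLS line carries an allele that lacks the nuclear localization signal in frame and encodes a protein of 829 amino acids. BG02557, the line both were set against, has the P-element P{GT1} in the first intron of Pcif1. Both edited alleles were made by CRISPR-Cas9 in w1118 flies and then backcrossed to BG02557 for up to 10 generations, per the labels, which give no age. RNA came from 3 pairs of ovaries per line, and the submitters describe the libraries of a line as biological replicates.

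Aminoacyl-tRNA synthetases join each amino acid to its tRNA and so supply the ribosome with building blocks. Cytoplasmic enzymes serve translation of nuclear messages, and mitochondrial enzymes, also encoded in the nucleus, serve the few messages of the mitochondrial genome. Uncharged tRNA activates the kinase Gcn2, which raises translation of the transcription factor ATF4 (crc in flies), and in mammals ATF4 raises transcription of many cytoplasmic synthetase genes. A growing egg chamber makes large amounts of protein, so these enzymes are housekeeping genes of the germline and of its follicle cells.

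The values are the mean normalized count over all libraries, the log2 fold change of each mutant line over BG02557 and the adjusted p, all as the authors' deposited table gives them. Values of single libraries are not analysed here, so no spread, interval or level per line is given, and depth per library is likewise not given. A gene is called where its adjusted p by DESeq2 was under 0.05, and the words rose and fell are kept for called genes. In M6stop 5.52% of the 10662 tested genes were called (3.48% upward and 2.04% downward), and in F9ΔNLS 23.4% were called (11.6% upward and 11.9% downward). Both comparisons use the same BG02557 libraries. Whether the fold changes were shrunk toward 0 is not stated, so a small value may understate a change. Over tested genes the absolute log2 fold change had a median of 0.03 in M6stop and of 0.11 in F9ΔNLS, so sizes were not compared between the lines. Pcif1 itself had a log2 value of -2.51 in M6stop, where it was called, and of 0.02 in F9ΔNLS, where it was not, per the authors' deposited table. Oocyte and germline markers were present, with means of 853 (bam) to 35691 (osk) normalized counts, per the authors' deposited table.

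Cytoplasmic synthetase transcripts were more abundant than mitochondrial ones. Divided by exonic length from the Ensembl annotation, the median level was 1298 normalized counts per kb for cytoplasmic genes and 208 per kb for mitochondrial genes. Every one of the 18 cytoplasmic genes lay above the highest mitochondrial gene on this scale. LysRS, for lysine, and AlaRS, for alanine, had the highest levels, at 2149 and 2148 normalized counts per kb. CysRS, for cysteine, had the lowest cytoplasmic level, at 646 per kb. Among mitochondrial genes AspRS-m, for aspartate, led with 589 per kb and MetRS-m, for methionine, came last with 114 per kb. The exons of MetRS-m span 4314 bases in the annotation for a coding stretch of 582 codons, which lowers its value per kb. The exons of AspRS-m span 4422 bases, the most in the mitochondrial group. Before division by length the groups overlapped. The mean of AspRS-m (2607 normalized counts) was above those of TrpRS (1411), CysRS (1585), ArgRS (2012) and TyrRS (2287), per the authors' deposited table. Summed over genes, the mean normalized count of the cytoplasmic group was 6.23 times that of the mitochondrial group.

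**Figure D1:**
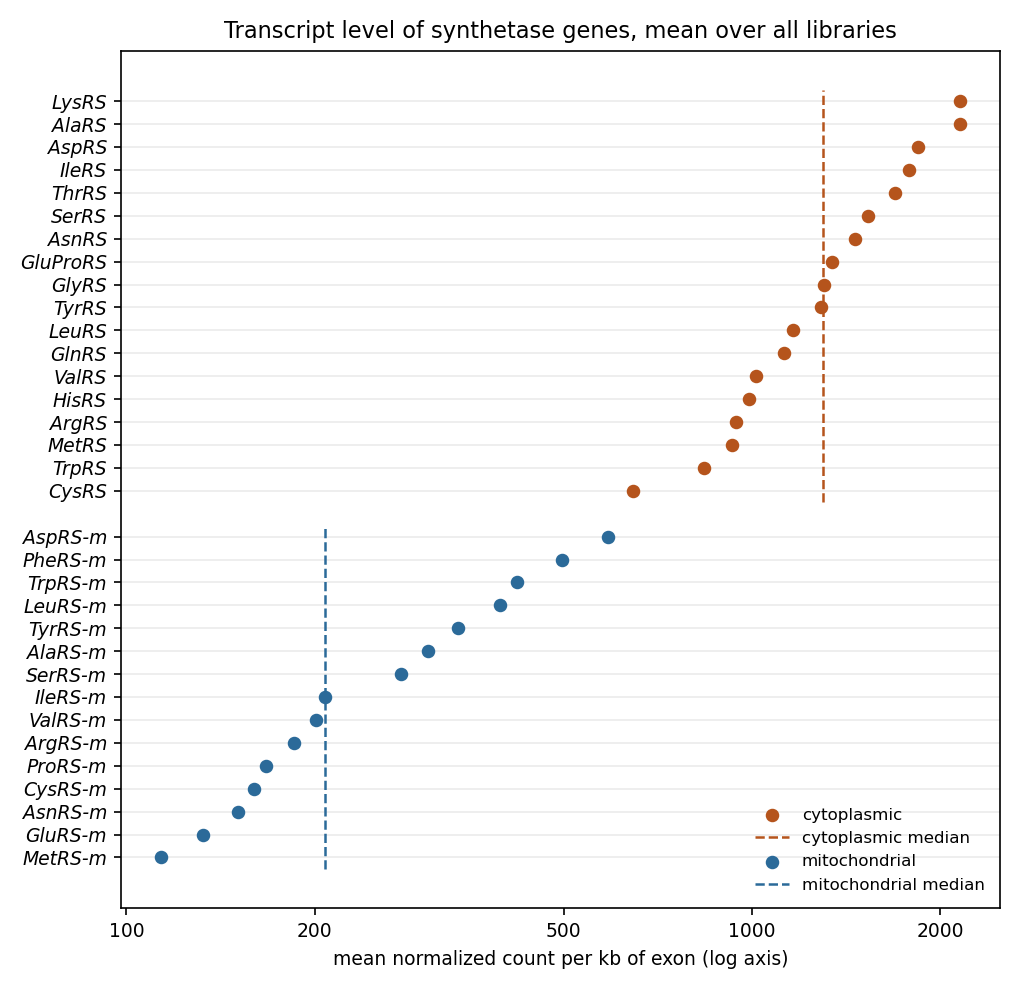
Level of each synthetase gene as the mean normalized count over all libraries per kb of exon, on a log axis, with 1 point per gene and dashed lines at the group medians. The cytoplasmic genes lie between 646 and 2149 per kb and the mitochondrial genes between 114 and 589 per kb, with no overlap on this scale.

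The ratio of these levels differed among amino acids. For 12 amino acids a cytoplasmic gene of their own and a mitochondrial gene were both members, and the cytoplasmic gene had the higher level per kb in all 12. Glutamate and proline, which share the cytoplasmic gene GluProRS, were kept out of these pairs. The level of GluProRS per kb was 10.1 times that of GluRS-m and 8.03 times that of ProRS-m. The ratio was 9.70 for asparagine, 8.58 for isoleucine and 8.18 for methionine, at the upper end of the 12. It was 1.99 for tryptophan, 2.94 for leucine and 3.13 for aspartate, at the lower end. No measure of spread between libraries stands behind these ratios, so the order of close neighbours is not resolved.

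Gene structure differed among the members too. In the annotation 6 cytoplasmic genes and 2 mitochondrial genes encode proteins of more than 1 length. They include GlyRS (679 and 765 codons), LysRS (574 and 607), HisRS (522 to 564) and ThrRS (690 and 747), whose amino acids glycine, lysine, histidine and threonine have no -m gene among the members. In humans single genes for the glycine and lysine enzymes are known to serve both compartments. GlnRS, for glutamine, has no -m counterpart either, and its annotation gives 1 coding length of 778 codons. Mitochondrial glutamine tRNA is charged by an indirect route in animals, through glutamate and an amidotransferase. Reads were not assigned to single isoforms here.

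In F9ΔNLS ovaries 9 of 18 cytoplasmic synthetase genes rose and 0 fell, against 11.6% of all tested genes that rose. Tested genes with a mean in the range of the cytoplasmic members (1411 to 7317 normalized counts) rose more often than tested genes in general, at 19.8%. The median log2 fold change was 0.17 for the cytoplasmic members, 0.020 for tested genes in the same range of means and 0.004 for all tested genes. Without GlyRS, LysRS and HisRS, which are 3 of the genes whose amino acid has no -m gene among the members, the cytoplasmic median was 0.093. These 3 genes had values above the median of the 18, so leaving them out could only lower it. Of the 18 values 17 were positive, beside 51.4% of all tested genes and 54.4% of those in the same range of means. The changes were small in size as deposited.

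IleRS, the isoleucine enzyme, had the largest rise. At a mean of 6944 normalized counts, its log2 fold change was 0.37, or 1.29-fold (adjusted p = 4.15e-08, DESeq2), per the authors' deposited table. It lies on 3L from 22288665 to 22292810, plus strand (BDGP6), and no other annotated gene shares its exons. ValRS, for valine, which like isoleucine is a branched amino acid, rose by 0.24 (adjusted p = 2.05e-04, DESeq2), per the authors' deposited table. In contrast LeuRS, for leucine, the third branched amino acid, had a value of 0.06 (adjusted p = 0.56, DESeq2), per the authors' deposited table. The difference between these genes was not tested.

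GlnRS (3R from 25263267 to 25265721) rose by 0.24 (adjusted p = 0.0029, DESeq2), per the authors' deposited table. GlyRS (3L from 15095142 to 15097686) rose by 0.25 (adjusted p = 0.0063, DESeq2), per the authors' deposited table. With IleRS and ValRS, these were the 4 members with an adjusted p under 0.01.

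The other 5 calls had adjusted p-values between 0.01 and 0.05. AsnRS, for asparagine (2L from 19129469 to 19131954), rose by 0.24 (adjusted p = 0.014, DESeq2), per the authors' deposited table. AspRS, for aspartate, rose by 0.19 (adjusted p = 0.017, DESeq2), per the authors' deposited table. HisRS, for histidine (X from 18515428 to 18520445), rose by 0.22 (adjusted p = 0.023, DESeq2), per the authors' deposited table. GluProRS encodes a fused enzyme for glutamate and proline, and has the highest mean of the group before division by length (7317 normalized counts), per the authors' deposited table. It lies on 3R from 23952136 to 23958391 and rose by 0.20 (adjusted p = 0.030, DESeq2), per the authors' deposited table. LysRS (X from 9606363 to 9608884), with the highest level per kb, rose by 0.19 (adjusted p = 0.039, DESeq2), per the authors' deposited table.

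Of the 9 cytoplasmic genes that were not called in F9ΔNLS, 8 had positive values. ThrRS came closest to the threshold, at 0.15 (adjusted p = 0.076, DESeq2), per the authors' deposited table. CysRS, SerRS (serine), TrpRS (tryptophan), AlaRS and ArgRS (arginine) had values of 0.08 to 0.09, and TyrRS (tyrosine) had 0.05, per the authors' deposited table. MetRS, which charges methionine tRNA including the initiator, was the 1 cytoplasmic gene with a negative value, -0.03 (adjusted p = 0.72, DESeq2), per the authors' deposited table. Outside the rule, alpha-PheRS (0.11) and beta-PheRS (0.08) were not called, per the authors' deposited table. The mean of AlaRS, which was not called (adjusted p = 0.37, DESeq2), was 7064 normalized counts, close to that of IleRS, per the authors' deposited table.

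**Figure D2:**
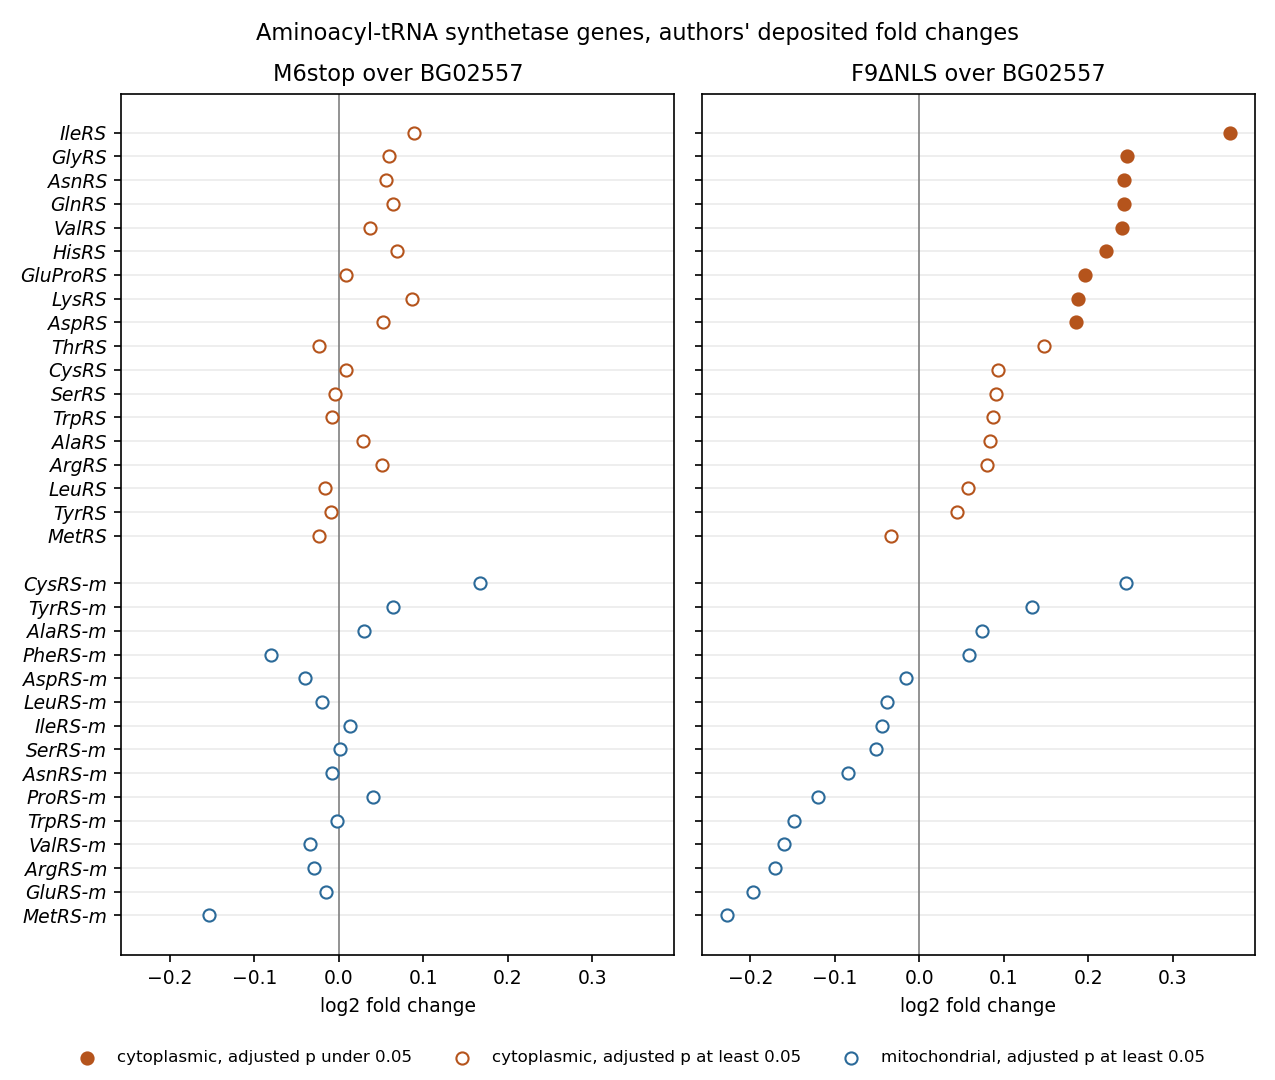
Log2 fold change of each synthetase gene over BG02557 in M6stop (left) and in F9ΔNLS (right), from the authors' deposited table, with filled points where the adjusted p was under 0.05. In F9ΔNLS 9 of 18 cytoplasmic genes are filled and lie between 0.19 and 0.37, while no mitochondrial gene in F9ΔNLS and no gene in M6stop is filled.

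No mitochondrial synthetase gene was called in F9ΔNLS, 0 of 15 by DESeq2. Of the tested genes with a mean in their range (224 to 2607 normalized counts), 29.0% were called in either direction. The median log2 fold change of the mitochondrial members was -0.051, beside -0.033 for tested genes in that range of means. Of the members 4 of 15 were positive, beside 42.7% of tested genes in that range. At an unadjusted p under 0.05, rebuilt from the adjusted values, at least 3 members would pass, 1 with a positive value and 2 with a negative one. Of the 5332 tested genes in that range of means, at least 2243 would pass. MetRS-m had the lowest value, -0.23 (adjusted p = 0.060, DESeq2), per the authors' deposited table. CysRS-m had the highest, 0.24 (adjusted p = 0.079, DESeq2), per the authors' deposited table. TrpRS-m was at -0.15 (adjusted p = 0.093, DESeq2), per the authors' deposited table.

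The other mitochondrial members had adjusted p-values of 0.17 or more by DESeq2. GluRS-m (-0.20), ArgRS-m (-0.17), ValRS-m (-0.16) and ProRS-m (-0.12) had the more negative values, per the authors' deposited table. AsnRS-m (-0.08), SerRS-m (-0.05), IleRS-m (-0.04), LeuRS-m (-0.04) and AspRS-m (-0.02) lay nearer to 0, per the authors' deposited table. TyrRS-m (0.13), AlaRS-m (0.07) and PheRS-m (0.06) were the remaining positive values, per the authors' deposited table. AspRS-m is the best covered of these, with a mean of 2607 normalized counts, and the least covered is AsnRS-m, with 224, per the authors' deposited table. Cytoplasmic genes are counted more deeply, so calls in the 2 groups may not have equal reach. In F9ΔNLS 502 of 2541 tested genes in the cytoplasmic range of means rose and 331 fell. In the mitochondrial range 625 of 5332 tested genes rose and 922 fell, which is 29.0% called in either direction. Whether the groups differ in response was not tested.

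Read pair by pair, with the fused GluProRS again left out, the cytoplasmic gene had the higher log2 fold change in F9ΔNLS for 10 of 12 amino acids. For 8 of the 12 the cytoplasmic value was positive and the mitochondrial value negative. Tested genes in the cytoplasmic range of means had a median of 0.020 in F9ΔNLS, and those in the mitochondrial range one of -0.033. Isoleucine had the widest gap of the 12, 0.41 on the log2 scale, between 0.37 for IleRS and -0.04 for IleRS-m, per the authors' deposited table. Valine came next with a gap of 0.40, between 0.24 for ValRS and -0.16 for ValRS-m, per the authors' deposited table. For asparagine the gap was 0.33, between 0.24 for AsnRS and -0.08 for AsnRS-m, and for aspartate 0.20, between 0.19 for AspRS and -0.02 for AspRS-m, per the authors' deposited table. The called gene GluProRS (0.20) lay above GluRS-m (-0.20, adjusted p = 0.19, DESeq2) by 0.39 and above ProRS-m (-0.12, adjusted p = 0.44, DESeq2) by 0.32, per the authors' deposited table. Cysteine and tyrosine ran the other way, with the mitochondrial value above the cytoplasmic one by 0.15 and 0.09, per the authors' deposited table, and none of these 4 genes was called. Alanine had nearly equal values, 0.08 for AlaRS and 0.07 for AlaRS-m, per the authors' deposited table.

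**Figure D3:**
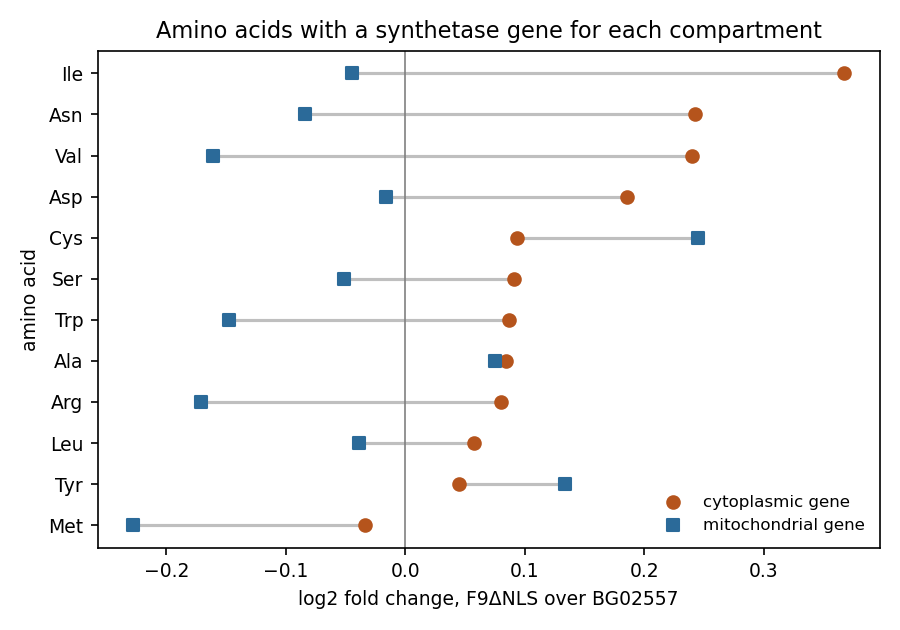
Log2 fold change in F9ΔNLS over BG02557 of the cytoplasmic gene (circles) and the mitochondrial gene (squares) for the 12 amino acids with a gene of each kind, without the fused GluProRS, from the authors' deposited table. The circle lies to the right of the square for 10 of 12 amino acids, with gaps of up to 0.41.

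The called genes were spread over the known subdivisions of the cytoplasmic enzymes. In mammals the enzymes for arginine, aspartate, glutamate and proline, glutamine, isoleucine, leucine, lysine and methionine are held in a multi-synthetase complex. Of the 8 fly genes for these, 5 rose in F9ΔNLS (median log2 fold change 0.19), and of the 10 others 4 rose (median 0.12). By the fold of the catalytic domain, 3 of 9 class I genes rose (median 0.09) and 5 of 8 class II genes rose (median 0.19), and GluProRS, which has both folds, rose too. Of the 5 cytoplasmic genes whose amino acid has no -m gene, 4 rose, and of the 13 others 5 rose, a split made after the values were seen. None of these differences between subdivisions was tested.

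In M6stop ovaries no synthetase gene was called, 0 of 33 by DESeq2, beside 5.52% of all tested genes. The smallest adjusted p among members was 0.27. At an unadjusted p under 0.05, rebuilt from the adjusted values, at least 2 members would pass, CysRS-m with a positive and MetRS-m with a negative value. Of the 10662 tested genes at least 1598 would pass in M6stop. CysRS-m had a log2 fold change of 0.17 and MetRS-m one of -0.15 in M6stop, each with an adjusted p of 0.27 by DESeq2, per the authors' deposited table.

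Cytoplasmic values in M6stop lay between -0.02 and 0.09, with a median of 0.03, per the authors' deposited table. IleRS (0.09) and LysRS (0.09) were the highest and MetRS (-0.02) and ThrRS (-0.02) the lowest in M6stop, per the authors' deposited table. The 9 genes that rose in F9ΔNLS had M6stop values of 0.008 (GluProRS) to 0.09 (IleRS), all with adjusted p-values of 0.39 or more by DESeq2, per the authors' deposited table. The comparisons share the BG02557 libraries, so the values for one line are not independent of those for the other. The median of the mitochondrial members in M6stop was -0.01. A missing call does not show that the RNA stayed level, and the M6stop and F9ΔNLS lines were not tested against each other.

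The members lie on all large chromosome arms, and 5 of them are within 5 Mb of Pcif1 on 3L. These are IleRS, the closest at 1502468 bases, with TyrRS, TrpRS-m, GluRS-m and IleRS-m. IleRS was the 1 of the 5 that was called in F9ΔNLS. Of tested genes in that window 13.6% rose in F9ΔNLS, beside 11.6% of all tested genes. Of the 8 other called synthetase genes, GlyRS lies on 3L just outside the window, at 5.68 Mb from Pcif1. The rest lie on other arms.

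Exons of 16 members overlap those of another annotated gene, and 4 of the 9 called genes are among them. For GlnRS the shared stretch is 26 bases of CG11858, and for HisRS it is 255 bases of Bx, on the same strand, which was not called at a value of -0.28 in F9ΔNLS, per the authors' deposited table. GluProRS shares 905 bases with asRNA:CR46092, which had a mean of 0.41 normalized counts, per the authors' deposited table. AspRS shares 63.9% of its exonic length with asRNA:CR45141, which had a mean of 1.40 normalized counts, and shorter stretches with Nmda1 and, on the same strand, asRNA:CR43468, per the authors' deposited table and the annotation. The sources used here give neither the strand setting of the counting nor how reads in shared stretches were assigned, so values of these 4 genes are uncertain. For stretches shared on the same strand a strand setting would not tell the genes apart. IleRS, ValRS, GlyRS, AsnRS and LysRS share no exonic base with another gene.

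Genes that work beside the synthetases gave mixed counts in F9ΔNLS. AIMP1, AIMP2 and AIMP3, the scaffold proteins of the multi-synthetase complex, were not called and had values of -0.05, 0.01 and 0.06, per the authors' deposited table. Cytoplasmic elongation factors carry charged tRNA to the ribosome or move it along. eEF1alpha1 (0.20), the tRNA carrier, eEF1delta (0.34), of its exchange complex, and the translocase eEF2 (0.25) rose, per the authors' deposited table. The fourth call of this list of 9 was eEF1alpha2 (1.41), at a mean of 50.8 normalized counts, per the authors' deposited table. It is a close paralog of eEF1alpha1, so reads may be split between both. In M6stop eEF1alpha2 (1.29) was the 1 gene of the list that rose, with an adjusted p of 0.0012 by DESeq2, per the authors' deposited table. Of all tested genes 3.48% rose in M6stop. The list median in F9ΔNLS was 0.18, and its 4 of 9 risers stand beside 11.6% of all tested genes.

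On the mitochondrial side, 4 of 15 listed partners rose in F9ΔNLS and 0 fell, beside 11.6% and 11.9% of all tested genes. The elongation factors mEFTu1 (0.46, adjusted p = 9.22e-07 by DESeq2), mEFTs (0.31) and mEFG1 (0.20) rose, as did the mitochondrial RNA polymerase mtRNApol (0.17), per the authors' deposited table. GatA (-0.05) and GatB (-0.26, adjusted p = 0.088 by DESeq2), subunits of the amidotransferase that completes glutamine charging, and Slimp (-0.08), an insect relative of the mitochondrial serine enzyme, were not called and had negative values, per the authors' deposited table. CG1750 had the highest value without a call, 0.38 (adjusted p = 0.060, DESeq2), per the authors' deposited table. In M6stop 0 of the 15 were called by DESeq2, beside 5.52% of all tested genes. At least 2 had an unadjusted p under 0.05, beside at least 1598 of 10662 tested genes.

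Of 18 genes linked to amino acid limitation, 6 rose and 3 fell in F9ΔNLS (median 0.12), beside 11.6% and 11.9% of all tested genes. Asparagine synthetase, AsnS (0.35, adjusted p = 2.21e-06 by DESeq2), rose beside AsnRS, per the authors' deposited table. Nmdmc (0.56) and Shmt (0.22), enzymes of folate-bound one-carbon units, rose, and so did aay (0.16), a phosphatase of serine synthesis, and CG6287 (0.25), per the authors' deposited table. The amino acid transporter gene mnd rose in F9ΔNLS (0.15) and in M6stop (0.18), per the authors' deposited table. CG11899 (-0.17), slif, another amino acid transporter (-0.37), and Sesn, an inhibitor of TOR signalling (-0.78), fell in F9ΔNLS, per the authors' deposited table. The sensor Gcn2 (-0.06), crc (0.14) and Thor, the eIF4E-binding protein (0.01), were not called in F9ΔNLS, per the authors' deposited table. In M6stop 2 of the 18 rose, mnd and the pseudokinase gene trbl (0.29), and 2 fell, Sesn (-0.78) and the eIF2alpha kinase gene PEK (-0.69), per the authors' deposited table. Of all tested genes 3.48% rose and 2.04% fell in M6stop.

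Of 15 genes of tRNA processing, 2 rose in F9ΔNLS and 0 fell (median -0.01), a share that rose near the 11.6% of all tested genes. They were La (0.24), whose protein binds the ends of new tRNA, and RtcB (0.24), the ligase that joins spliced tRNA, per the authors' deposited table. In M6stop 0 of the 15 were called by DESeq2, beside 5.52% of all tested genes. At least 1 had an unadjusted p under 0.05, beside at least 1598 of 10662 tested genes.

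**Figure D4:**
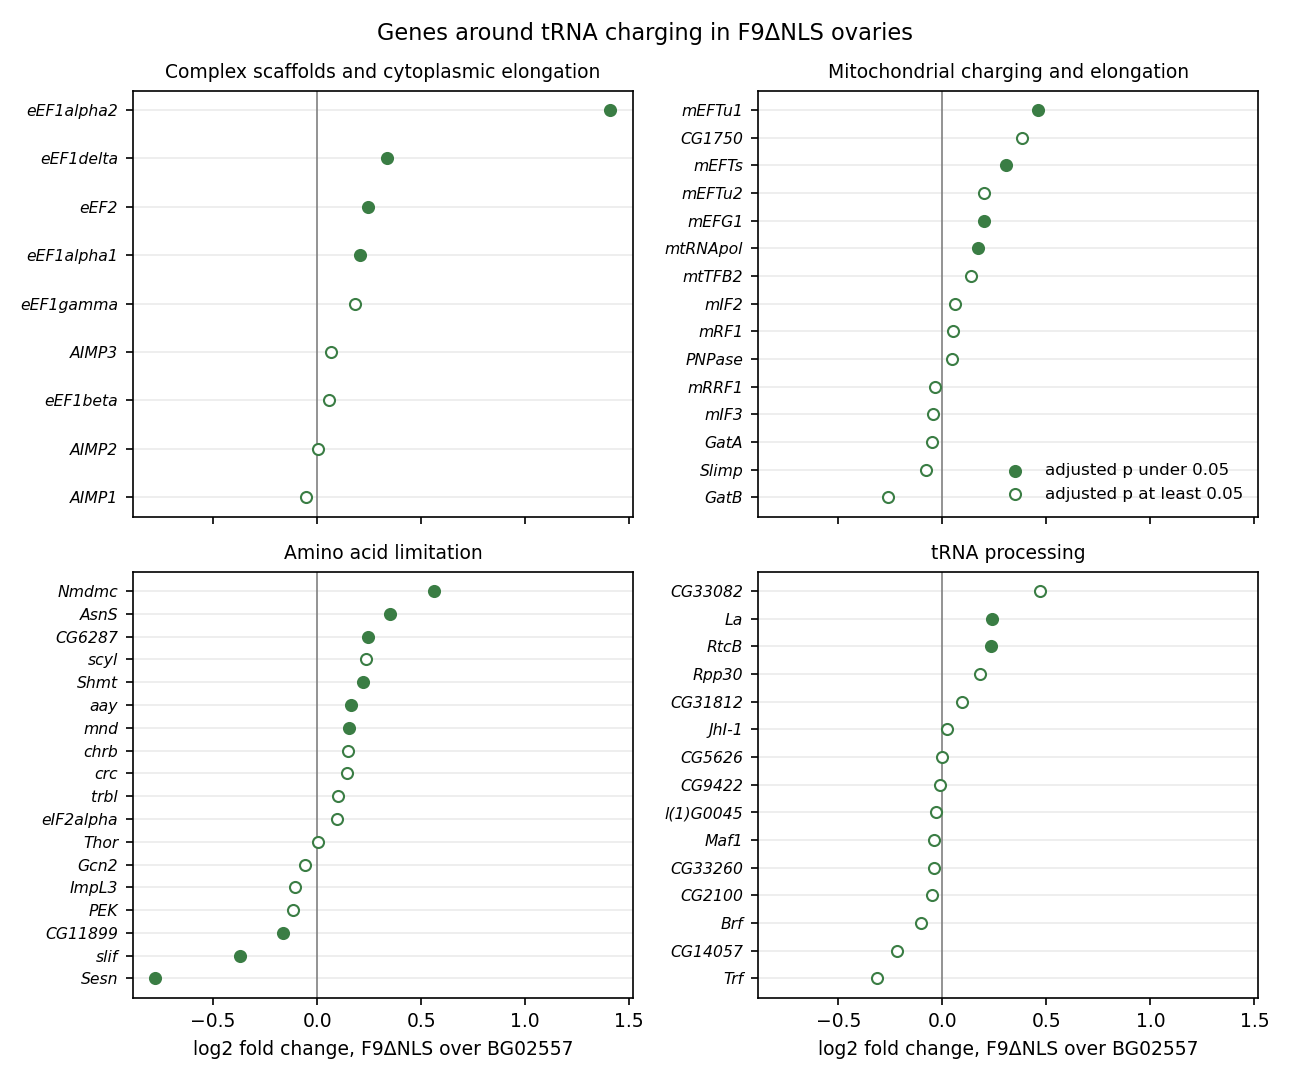
Log2 fold change in F9ΔNLS over BG02557 of genes that work with the synthetases, in 4 lists, from the authors' deposited table, with filled points where the adjusted p was under 0.05. Filled points number 4 of 9, 4 of 15, 9 of 18 and 2 of 15, and the AIMP scaffolds lie between -0.05 and 0.06.

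Cell type markers moved in the same comparison. In F9ΔNLS 9 of 10 muscle sheath markers rose (median 0.76), and 4 of 6 follicle cell markers rose while 1 fell. Of all tested genes 11.6% rose and 11.9% fell in F9ΔNLS. Of the 6 germline markers 2 rose, osk (0.36) and orb (0.40), and nos (-0.60) fell, per the authors' deposited table. Fat body markers rose in 3 of 7 cases (Fbp1, Fbp2 and Lsp1alpha) and haemocyte markers in 2 of 5, with no fall in either. In M6stop, where no synthetase gene was called, 4 of 10 muscle, 3 of 7 fat body, 1 of 6 follicle cell and 1 of 5 haemocyte markers rose and 0 fell. Of all tested genes 3.48% rose and 2.04% fell in M6stop. The fat body markers that rose in M6stop were apolpp, Apoltp and Obp99a, none of which was called in F9ΔNLS. No marker was listed at 0. In these bulk samples a change in the share of cells of a type and a change in RNA per cell cannot be told apart. The part of cell composition in the synthetase values was not tested.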

How the data were processed

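Ovary RNA of 3 fly lines was sequenced in paired-end libraries after depletion of ribosomal RNA, per the labels' protocols. Per the submitters' processing notes, the tools were DESeq2 1.25.10, DESeq, R 3.6.3 and Salmon 1.3.0 and the build was BDGP6, with no role given. The mean normalized count is a signal value (counts over size factors, averaged over libraries) made by the authors. The log2 fold changes and the adjusted p-values are as deposited, and base 2 was assumed for the logarithm. Shrinkage and the adjustment method are not stated. The table's 9 columns of per-library values have names that match no sample label and were not used. Depth per library is therefore not given, and no test of single libraries was run.

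Members and gene lists were chosen with earlier results of these data known. Calls are at an adjusted p under 0.05 over 10662 genes. Unadjusted p-values were rebuilt as upper bounds assuming Benjamini-Hochberg adjustment, in a step tested on simulated data. Positions and exon lengths are from Ensembl release 115 (BDGP6.54), whose chromosome matched for every member. All members are accounted for, with fuller values for called members, their counterparts in the other compartment and the extremes of each group. The lists held 102 entries, from which 91 genes were found. Some entries name the same gene, such as JhI-1 and RNaseZ, so the remaining entries are not all missing genes. Sequences are not shown. Python 3.11.15 and pandas 2.3.3 were used.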

Additional observations from a re-analysis of the deposited data

How the results depend on the processing

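No paired analysis was possible because the library columns carry codes that match no sample label, and for the same reason the planned edgeR fits, the other scalings and the fits that leave out single libraries were not run. At an adjusted p threshold of 0.01, 4 synthetase genes, all cytoplasmic, were called in F9ΔNLS in place of 9, and with members that overlap another gene left out, an alternative added after seeing the data, 5 were. At a threshold of 0.1 the mitochondrial count in F9ΔNLS was 3. Without GlyRS, LysRS and HisRS the cytoplasmic median log2 fold change was 0.093 in F9ΔNLS and 0.0079 in M6stop, and with alpha-PheRS and beta-PheRS added (an alternative chosen after seeing the data) it was 0.13 in F9ΔNLS. GlyRS, LysRS and HisRS lay above the cytoplasmic median in both lines, so their removal could only lower it. In each case the cause was not tested beyond the change in genes counted. The other alternatives run kept each count within 1.5 times and each median within 0.02 of its value, without a change of sign. Within these limits the F9ΔNLS count of 9 became 13 at an adjusted p threshold of 0.1. It became 6 at an absolute log2 fold change of at least 0.2. The cytoplasmic median in M6stop went from 0.033 to 0.019 with alpha-PheRS and beta-PheRS added. Mitochondrial members had means of 224 to 2607 normalized counts, and 29.0% of tested genes in that range were called in F9ΔNLS.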

Other observations

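The tRNA substrates of these enzymes could not be followed. The authors' deposited table lists 107 tRNA genes, whose mean normalized counts sum to 20.5 with a highest value of 5.06, and 1 of them had an adjusted p.

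TyrRS and GluRS-m are neighbours on the minus strand of 3L, 171 bases apart. Their log2 fold changes in F9ΔNLS were 0.05 and -0.20, neither of them called, per the authors' deposited table. ArgRS-m overlaps mRpS9, a mitochondrial ribosomal protein gene on the other strand, by 325 exonic bases. In F9ΔNLS mRpS9 rose by 0.21 (adjusted p = 0.013, DESeq2) and ArgRS-m had a value of -0.17 (adjusted p = 0.21, DESeq2), per the authors' deposited table. TyrRS-m overlaps CG3594 by 54 bases, and CG3594 rose by 0.30 (adjusted p = 0.032, DESeq2) beside a TyrRS-m value of 0.13 (adjusted p = 0.25, DESeq2), per the authors' deposited table.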
